A study of Mus musculus with 24 samples.

Results

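The genes described here are 10 mouse genes of transforming growth factor beta (TGF-beta): the ligands Tgfb1, Tgfb2 and Tgfb3, the latent binders Ltbp1 and Ltbp3, the receptors Tgfbr1, Tgfbr2 and Tgfbr3, and the secreted proteins Fstl1 and Tgfbi. They were found by their symbols in the platform annotation with no threshold on a measured value, although the set was proposed with earlier results of these data known. All 10 were among the 8945 genes that passed the detection filter, of 16593 genes with a probe. They had 22 of the 25697 probes. Of these, 15 were detected on enough arrays to be tested, and 7 were detected on no array (4 of Ltbp1, 2 of Tgfbr1 and 1 of Tgfbr3). Each gene is described by its brightest kept probe.

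RNA came from the gastrocnemius, a hind-limb muscle, of 24 male mice, each on 1 Illumina BeadChip array. The wild-type group was the C57Bl/10ScSnJ strain, with 4 mice for which the labels name no injection. The other 20 mice were mdx, a strain with a mutation in the dystrophin gene and a background strain that the labels do not name. For 7 weeks, 5 of them received PBS, 5 received PBS and had a running wheel that they used at will, 5 received sActRIIB-Fc, and 5 received sActRIIB-Fc and had the wheel (the combination). sActRIIB-Fc was given into the abdomen weekly at 5 mg/kg. It is the ligand-binding part of an activin receptor fused to an Fc fragment, and it traps myostatin and activins. Every mdx group was injected and the wild type was not labelled as injected, so genotype and injection cannot be told apart. The labels give an age of 6 to 7 weeks with no time point. The muscle genes Acta1, Ckm and Tnnt3 were detected on 24 of 24 arrays. Both probes of Dmd, the dystrophin gene, were detected on 0 of 24 arrays, so the genotype was not checked by its transcript.

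TGF-beta ligands are secreted in an inactive form, held by their own propeptide, which latent TGF-beta binding proteins (the LTBPs) anchor in the extracellular matrix. Once freed, a ligand binds the type II receptor Tgfbr2, which recruits the type I receptor Tgfbr1, and Tgfbr1 then phosphorylates Smad2 and Smad3. Tgfbr3, or betaglycan, is a co-receptor that presents ligand, Tgfb2 above all. In damaged muscle macrophages and fibroblast-like cells are known sources and targets of TGF-beta, and the pathway is known for driving collagen deposition. sActRIIB-Fc is built from the receptor of myostatin and activins, whereas the TGF-beta ligands use Tgfbr2.

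The number of detected probes was 10404 to 10634 in wild type and 10938 to 11971 in mdx. Levels below are log2 units after background correction and quantile normalization, on a scale of each probe's own, so that they are compared between groups and not between genes. Transcripts of hepatocytes, which muscle should lack, varied widely: the mean of 8 such genes lay between 5.04 and 11.44 in wild type and between 4.75 and 10.03 in mdx, and their summed linear level between 571 and 30484 in wild type and between 562 and 14884 in mdx. Wild-type replicate 2 (11.44), combination replicates 1 (10.03) and 2 (9.36) and running replicate 2 (9.88) were the 4 richest. Within mdx the mean reached 9.88 under running and 10.03 in the combination, but only 7.92 under PBS and 6.78 under sActRIIB-Fc. All 8 genes had a higher estimate with running averaged over both injections (median difference 1.4), and none was called. The part of these transcripts in the running comparisons was not tested. Alb and Fgb, defining genes of that list, were detected on no array.

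Of the 10 genes, 5 rose in PBS-injected mdx against wild type and none fell: Tgfb1, Ltbp3, Tgfbr2, Fstl1 and Tgfbi (limma, Benjamini-Hochberg adjusted p under 0.05 over all 8945 genes). Among all tested genes 19.3% rose and 18.5% fell. The median difference of the 10 genes was 0.24 log2 units, against -0.05 for all genes. In 4 of the 10, every array of this PBS group lay above every wild-type array, as held for 17.2% of all genes.

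All 5 rises were also called when arrays were scaled to equal medians in place of equal quantiles. That scaling moved the median difference of all genes from -0.05 to 0.07 and the share of higher among called genes from 51.1% (1725 higher and 1651 lower) to 71.9% (2202 higher and 862 lower).

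**Figure D1:**
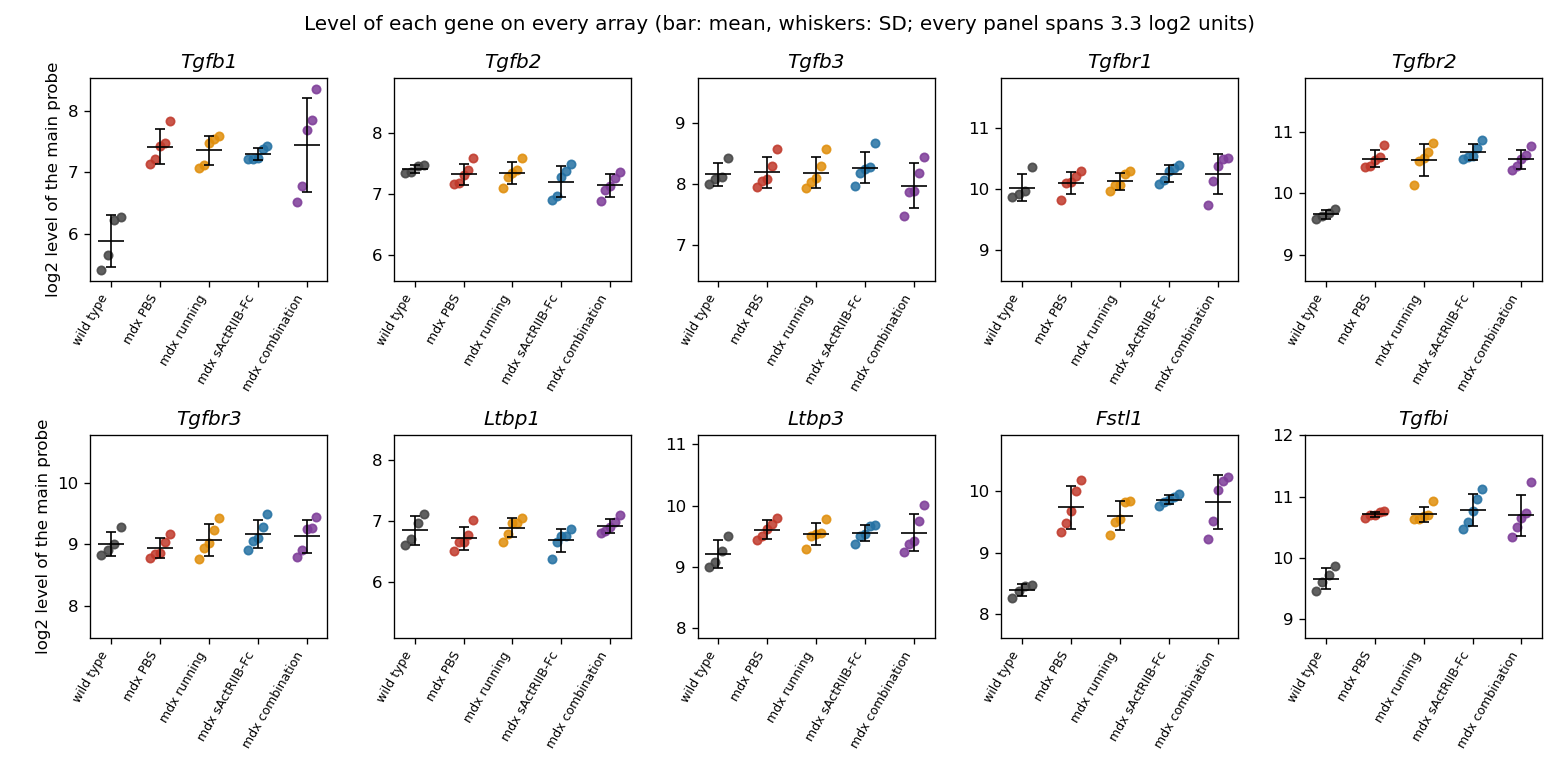
Log2 level of the main probe of each of the 10 genes (y axis, every panel spanning the same number of log2 units) on each of the 24 arrays, by group (x axis); points are arrays, bars group means and whiskers SD. In the Tgfb1, Tgfbr2, Fstl1 and Tgfbi panels all 20 mdx points lie above the 4 wild-type points, and the Tgfb1 points of the combination run from 6.53 to 8.37.

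Tgfb1, the ligand best known from fibrosis, gave the largest difference of the 10 with background correction. Its levels on the wild-type arrays were 5.66, 5.40, 6.22 and 6.27 for replicates 1 to 4. Under PBS they were 7.13, 7.49, 7.22, 7.44 and 7.85 for replicates 1 to 5. The groups did not overlap, and the lowest PBS array was above the highest wild-type array by more than the wild-type SD of 0.42. The change was 1.54 ± 0.26 log2 units (SE; 95% interval 0.99 to 2.08), or 2.90-fold, with an adjusted p of 6.6e-05 in limma. Of all 8945 genes, 222 had a larger upward difference.

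The wild-type Tgfb1 signals were near background. The raw signal ran from 90.3 to 107 there, with 3 of 4 arrays detected, and from 204 to 257 under PBS, with 5 of 5 detected. Without background correction the change was 0.98 log2 units (adjusted p = 0.00027), below the 1.22 of Fstl1 in that fit. Tgfb1 also moved with the hepatocyte transcripts: its deviations from the group mean over the 20 mdx arrays had a Pearson r of -0.78 with the hepatocyte mean (Spearman rho -0.80, and r -0.71 without the 2 farthest arrays). Wild-type replicate 2, the array richest in those transcripts, had the lowest Tgfb1. With the hepatocyte mean as a covariate the change was 1.11 (adjusted p = 6.57e-05), below the 1.43 of Fstl1, and without the 4 richest arrays it was 1.38 (adjusted p = 5.81e-06).

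The other ligands did not pass the test. Tgfb2 was between 7.35 and 7.47 on the wild-type arrays and between 7.15 and 7.58 under PBS, a difference of -0.08 ± 0.13 (95% interval -0.34 to 0.18, adjusted p = 0.64). Tgfb3 ran from 8.01 to 8.42 in wild type and from 7.94 to 8.56 under PBS, a difference of 0.03 ± 0.17 (-0.32 to 0.39, adjusted p = 0.91). Both intervals end well below the lower bound of the Tgfb1 interval. The difference between the ligands was not itself tested.

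Tgfbr2, the type II receptor that binds the ligand, had the lowest p of the 10. Its wild-type levels were 9.63, 9.75, 9.58 and 9.68. Under PBS they were 10.79, 10.60, 10.46, 10.55 and 10.44. The groups stood apart by several times their SDs of 0.07 and 0.14. The change was 0.90 ± 0.12 log2 units (0.67 to 1.14), or 1.87-fold (adjusted p = 1.55e-06).

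Neither of its partner receptors passed the test. Tgfbr1, the type I kinase, ran from 9.86 to 10.36 in wild type and from 9.82 to 10.29 under PBS (0.08 ± 0.14, interval -0.21 to 0.37, adjusted p = 0.68). Tgfbr3, the co-receptor, ran from 8.82 to 9.29 and from 8.78 to 9.17 (-0.07 ± 0.15, interval -0.38 to 0.24, adjusted p = 0.75). In both genes the groups overlapped on most of their range.

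Ltbp3, which anchors the latent complex, rose by a small amount. Its wild-type levels were 9.01, 9.07, 9.26 and 9.51. Under PBS they were 9.61, 9.70, 9.50, 9.44 and 9.81. The groups overlapped, since wild-type replicate 4 was above PBS replicates 3 and 4. The change was 0.40 ± 0.14 (0.12 to 0.68), or 1.32-fold (adjusted p = 0.025). It missed the threshold without wild-type replicate 1 (0.33, adjusted p = 0.088), without PBS replicate 5 (0.35, adjusted p = 0.060), without wild-type replicate 2 (0.35, adjusted p = 0.075), without the 4 hepatocyte-rich arrays (0.35, adjusted p = 0.062), and with the hepatocyte mean as a covariate (0.23, adjusted p = 0.15). Ltbp1, its relative, ran from 6.60 to 7.12 in wild type and from 6.51 to 7.01 under PBS (-0.13 ± 0.12, interval -0.38 to 0.12, adjusted p = 0.41).

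Fstl1, a secreted follistatin-like glycoprotein known to be induced by TGF-beta, had wild-type levels of 8.46, 8.26, 8.38 and 8.48. Under PBS they were 10.18, 9.48, 9.69, 10.01 and 9.34. The wild-type arrays were tight (SD 0.10) and the PBS arrays were spread wider (SD 0.35), with no overlap. The change was 1.35 ± 0.18 log2 units (0.97 to 1.72), or 2.54-fold (adjusted p = 3.03e-06).

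Tgfbi, a matrix protein named for its induction by TGF-beta that binds collagens and integrins, had wild-type levels of 9.73, 9.46, 9.60 and 9.87. Under PBS they were 10.70, 10.75, 10.66, 10.77 and 10.69. The 5 PBS arrays lay within 0.10 log2 units of each other, the narrowest spread of the 10 genes in that group (SD 0.04). The change was 1.05 ± 0.14 (0.75 to 1.35), or 2.07-fold (adjusted p = 3.63e-06).

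A total of 5 genes had a further tested probe, here adjusted over all 12623 tested probes. The second Tgfbi probe rose as well, by 0.76 ± 0.14 (adjusted p = 0.00021). The second Tgfbr2 probe was detected on 6 of 24 arrays and gave 0.10 ± 0.12 (adjusted p = 0.53), and the second Ltbp3 probe, detected on 22 arrays, gave 0.26 ± 0.25 (adjusted p = 0.44). The rises of Tgfbr2 and Ltbp3 thus stood on 1 probe each. Those of Tgfb1 and Fstl1 did so too, since each of these genes had only 1 probe on the platform. A second Tgfbr1 probe, detected on 9 arrays, fell by 0.35 ± 0.13 (adjusted p = 0.031), whereas the main probe gave 0.08. Its raw signals overlapped, from 83.6 to 103 in wild type and from 76.2 to 104 under PBS. Against wild type the same probe gave -0.49 under running (adjusted p = 0.0045), -0.31 under sActRIIB-Fc (adjusted p = 0.057) and -0.11 in the combination (adjusted p = 0.51). This probe was near background: it was detected on 2 of 4 wild-type arrays and 0 of 5 running arrays, with raw signals from 74.6 to 95.3 under running. The second Ltbp1 probe, detected on 6 arrays, gave -0.29 ± 0.18 (adjusted p = 0.20).

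The promoters of 5 of these genes are shown because Tgfb1, Tgfbr2, Fstl1 and Tgfbi stood apart from wild type together, while Tgfb2, a ligand of the same receptors, did not pass the test. Promoters are the 300 bases from 250 before to 50 after a RefSeq gene start (GRCm38.p6), and 8 of the 10 genes had one in the reference used. Capitals mark, on either strand, the SMAD box CAGACA, the AP-1 site TGANTCA, the GC box GGGCGG and the TATA box TATAAA.
Tgfb1 (chr7:25686752-25687051, plus strand): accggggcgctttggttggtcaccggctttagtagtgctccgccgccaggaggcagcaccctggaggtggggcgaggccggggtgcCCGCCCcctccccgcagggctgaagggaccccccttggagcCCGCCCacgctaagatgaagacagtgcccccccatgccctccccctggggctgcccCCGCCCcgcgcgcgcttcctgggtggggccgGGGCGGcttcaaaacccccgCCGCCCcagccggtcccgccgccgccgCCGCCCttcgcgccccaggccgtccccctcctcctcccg
Tgfb2 (chr1:186705940-186706239, minus strand): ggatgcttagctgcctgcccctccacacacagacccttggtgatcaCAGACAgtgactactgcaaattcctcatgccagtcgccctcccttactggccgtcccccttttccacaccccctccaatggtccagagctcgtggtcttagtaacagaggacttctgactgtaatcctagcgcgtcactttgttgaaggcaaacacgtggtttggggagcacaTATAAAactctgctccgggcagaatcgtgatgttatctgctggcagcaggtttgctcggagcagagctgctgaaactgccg
Tgfbr2 (chr9:116175314-116175613, minus strand): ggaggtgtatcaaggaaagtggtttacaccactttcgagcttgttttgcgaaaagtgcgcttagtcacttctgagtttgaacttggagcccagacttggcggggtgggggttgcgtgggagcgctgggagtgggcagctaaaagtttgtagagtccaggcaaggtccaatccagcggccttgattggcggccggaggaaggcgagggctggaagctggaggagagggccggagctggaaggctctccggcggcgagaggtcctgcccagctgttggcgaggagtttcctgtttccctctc
Fstl1 (chr16:37776805-37777104, plus strand): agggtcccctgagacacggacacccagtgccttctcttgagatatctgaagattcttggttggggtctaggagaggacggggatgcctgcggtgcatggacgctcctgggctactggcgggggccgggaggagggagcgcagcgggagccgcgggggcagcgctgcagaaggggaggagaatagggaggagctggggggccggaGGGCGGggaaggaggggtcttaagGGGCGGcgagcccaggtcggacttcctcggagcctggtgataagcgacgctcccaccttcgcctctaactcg
Tgfbi (chr13:56609336-56609635, plus strand): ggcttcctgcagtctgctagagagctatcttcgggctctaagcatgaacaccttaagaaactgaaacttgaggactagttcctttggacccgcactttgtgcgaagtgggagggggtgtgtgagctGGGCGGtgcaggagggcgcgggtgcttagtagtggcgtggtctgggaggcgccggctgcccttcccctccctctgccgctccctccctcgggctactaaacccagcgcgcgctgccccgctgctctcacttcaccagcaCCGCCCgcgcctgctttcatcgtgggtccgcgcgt
Tgfb1 held 6 GC boxes, Fstl1 held 2 and Tgfbi held 2, and a GC box stood in 35.7% of 32851 promoters of that length. None of these 3 promoters held a SMAD box (21.0% of all promoters), an AP-1 site (7.81%) or a TATA box (13.6%), and the Tgfbr2 window held none of the 4 motifs. Tgfb2 held 1 SMAD box and 1 TATA box and no GC box. Other genes that were not called varied in SMAD boxes. A promoter of Tgfbr1 held 1 and a promoter of Ltbp1 held 2, and the other promoter of each held none. GC boxes were not limited to genes that rose, since 1 of the 2 promoters of Tgfbr1, which was not called, held 2 of them. The GC content of the 5 windows was 77.0% for Tgfb1, 54.3% for Tgfb2, 59.0% for Tgfbr2, 66.7% for Fstl1 and 63.3% for Tgfbi. In Ltbp3 an AP-1 site and a SMAD box overlapped at the gene start. These letters describe the windows and say nothing of which factor bound there.

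The same genes stood apart from wild type in the other mdx groups, which were set against the same 4 wild-type arrays. Under running 4 of 10 rose and none fell, where 17.8% of all genes rose and 16.9% fell. Under sActRIIB-Fc 4 rose and none fell (19.8% and 19.1% of all genes), and in the combination 5 rose and none fell (19.5% and 19.7%). In each of these groups 4 of the 10 genes had every array above every wild-type array, as held for 15.1%, 17.4% and 13.4% of all genes in the same order. Tgfb1, Tgfbr2, Fstl1 and Tgfbi were called in all 4 mdx groups, as were 14.7% of all genes. In each of these genes all 20 mdx arrays lay above all 4 wild-type arrays, as held for 10.4% of all genes.

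Tgfb1 on the running arrays was 7.12, 7.08, 7.59, 7.48 and 7.54 (1.47 ± 0.26 against wild type, adjusted p = 0.00012). Under sActRIIB-Fc it was 7.24, 7.22, 7.39, 7.44 and 7.22 (1.41 ± 0.26, adjusted p = 0.00017). In the combination it was 6.53, 6.78, 8.37, 7.70 and 7.86 (1.56 ± 0.26, adjusted p = 5.09e-05). The sActRIIB-Fc arrays were the tightest and the combination arrays the widest of the mdx groups. Without background correction these changes were 0.94, 0.89 and 1.03, and each remained below an adjusted p of 0.05.

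Tgfbr2 was 10.13, 10.58, 10.54, 10.68 and 10.82 under running (0.89 ± 0.12, adjusted p = 2.42e-06). It was 10.59, 10.62, 10.56, 10.87 and 10.74 under sActRIIB-Fc (1.01 ± 0.12, adjusted p = 3.1e-07). In the combination it was 10.62, 10.77, 10.56, 10.38 and 10.45 (0.90 ± 0.12, adjusted p = 1.64e-06). The receptor lay in nearly the same range in all mdx groups, with running replicate 1 the lowest of the 20 arrays.

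Fstl1 was 9.30, 9.83, 9.84, 9.55 and 9.49 under running (1.21 ± 0.18, adjusted p = 1.42e-05). It was 9.86, 9.96, 9.83, 9.92 and 9.76 under sActRIIB-Fc (1.47 ± 0.18, adjusted p = 9.12e-07). In the combination it was 10.02, 10.17, 10.23, 9.22 and 9.51 (1.44 ± 0.18, adjusted p = 1.2e-06). The sActRIIB-Fc arrays lay close together (SD 0.08), whereas the combination arrays split into 3 above 10 and 2 below 9.6.

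Tgfbi was 10.64, 10.68, 10.93, 10.71 and 10.63 under running (1.05 ± 0.14, adjusted p = 4.33e-06). It was 10.96, 10.77, 10.48, 11.13 and 10.59 under sActRIIB-Fc (1.12 ± 0.14, adjusted p = 1.59e-06). In the combination it was 10.51, 10.65, 11.24, 10.34 and 10.74 (1.03 ± 0.14, adjusted p = 4.37e-06). Both groups that received sActRIIB-Fc were wider (SD 0.26 and 0.34) than PBS (0.04) and running (0.12). That difference in spread was not tested.

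Ltbp3 was at the threshold in these groups. It ran from 9.29 to 9.79 under running (0.33 ± 0.14, adjusted p = 0.068), from 9.37 to 9.69 under sActRIIB-Fc (0.34 ± 0.14, adjusted p = 0.052) and from 9.25 to 10.01 in the combination (0.35 ± 0.14, adjusted p = 0.046). The combination's call was lost without any 1 of running replicates 2 and 3, combination replicates 4 and 5, wild-type replicates 1, 2 and 3, PBS replicates 1, 2 and 3 or sActRIIB-Fc replicates 1 and 2, with changes from 0.24 to 0.37 and adjusted p from 0.051 to 0.14. The running group passed without running replicate 1 (0.39, adjusted p = 0.039), combination replicate 4 (0.33, 0.038) or wild-type replicate 4 (0.42, 0.027). The sActRIIB-Fc group passed without running replicate 1 or 4, combination replicate 1 or 4, wild-type replicate 4 or sActRIIB-Fc replicate 5, at 0.34 to 0.44 with adjusted p from 0.020 to 0.049. Whether Ltbp3 passed in these 3 groups thus turned on single arrays, with differences from 0.24 to 0.45 when any 1 array was left out. It turned on the fit too. Running and sActRIIB-Fc passed with scaling to equal medians (adjusted p = 0.0078 and 0.0066), with the raw median signal of each array as a covariate (0.0033 and 0.0029) and with array weights (0.018 and 0.016). The combination did not pass with array weights (0.092), with the hepatocyte mean as a covariate (0.076), without a detection filter (0.067) or with only the compared groups in the fit (0.15).

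The remaining genes had no call against wild type in these groups. Tgfb2 gave -0.07 under running, -0.20 under sActRIIB-Fc and -0.27 in the combination (adjusted p = 0.71, 0.21 and 0.098). Tgfb3 gave 0.03, 0.11 and -0.18, Tgfbr1 gave 0.10, 0.23 and 0.23, Tgfbr3 gave 0.07, 0.16 and 0.13, and Ltbp1 gave 0.04, -0.17 and 0.07 in the same order. Their adjusted p ran from 0.20 to 0.92. Without combination replicate 4 the combination's Tgfbr1 difference was 0.35 (adjusted p = 0.025).

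**Figure D2:**
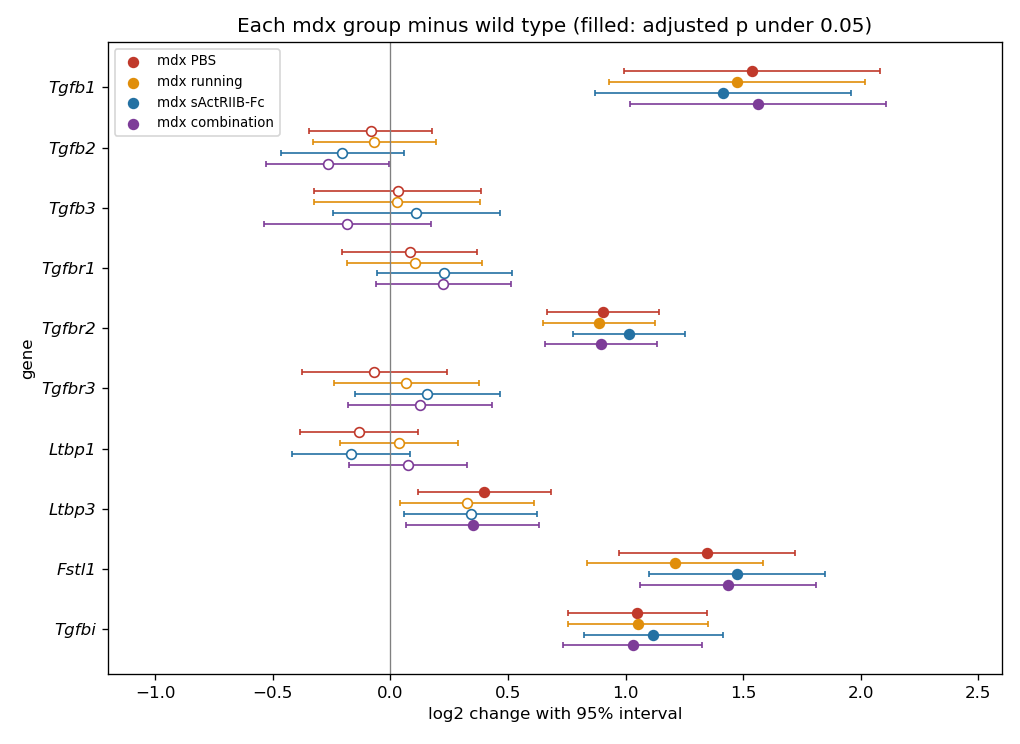
Log2 difference from wild type (x axis) of each of the 10 genes (y axis) in each of the 4 mdx groups; points are limma estimates, lines 95% intervals, and filled points passed an adjusted p of 0.05. Tgfb1, Tgfbr2, Fstl1 and Tgfbi lie right of 0 in all 4 groups, from 0.89 to 1.56, while the intervals of Tgfb2, Tgfb3, Tgfbr1, Tgfbr3 and Ltbp1 reach or nearly reach 0.

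The comparisons within mdx asked whether running, sActRIIB-Fc or both moved these genes. None of the 10 passed the test in any of the 8 comparisons. Over all 8945 genes 1 was called (0.0112%) for running against PBS and for running averaged over both injections, and 0 in the other 6 comparisons, although some had an unadjusted p under 0.05. Those were 3.32% of all genes for running against PBS, 3.19% for sActRIIB-Fc against PBS, 5.85% for the combination against PBS, 3.79% for the combination against running and 8.28% for the combination against sActRIIB-Fc. They were 6.7% for running averaged over injection, 3.15% for sActRIIB-Fc averaged over activity and 3.98% for the interaction. Of the 10 genes, Ltbp1 alone had an unadjusted p under 0.05, in 2 of these comparisons. These comparisons share arrays and are not independent of each other.

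For running against PBS the estimates of the 10 genes ran from -0.14 (Fstl1) to 0.17 (Ltbp1), with 95% intervals that reached from -0.58 to 0.45. For sActRIIB-Fc against PBS they ran from -0.12 (Tgfb1) to 0.23 (Tgfbr3), with intervals from -0.64 to 0.52. For the combination against PBS they ran from -0.21 (Tgfb3) to 0.21 (Ltbp1), with intervals from -0.55 to 0.54. In this main fit no estimate reached 0.3 log2 units. The outer bounds belonged to Tgfb1, except the upper bound under sActRIIB-Fc (Tgfbr3) and the lower bound of the combination (Tgfb3). Tgfb1 in the combination depended on the processing. Over the 36 other settings described below its difference from PBS ran from -0.27 to 0.55. Its difference from sActRIIB-Fc alone ran from -0.19 to 0.68. Neither was called in any setting.

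**Figure D3:**
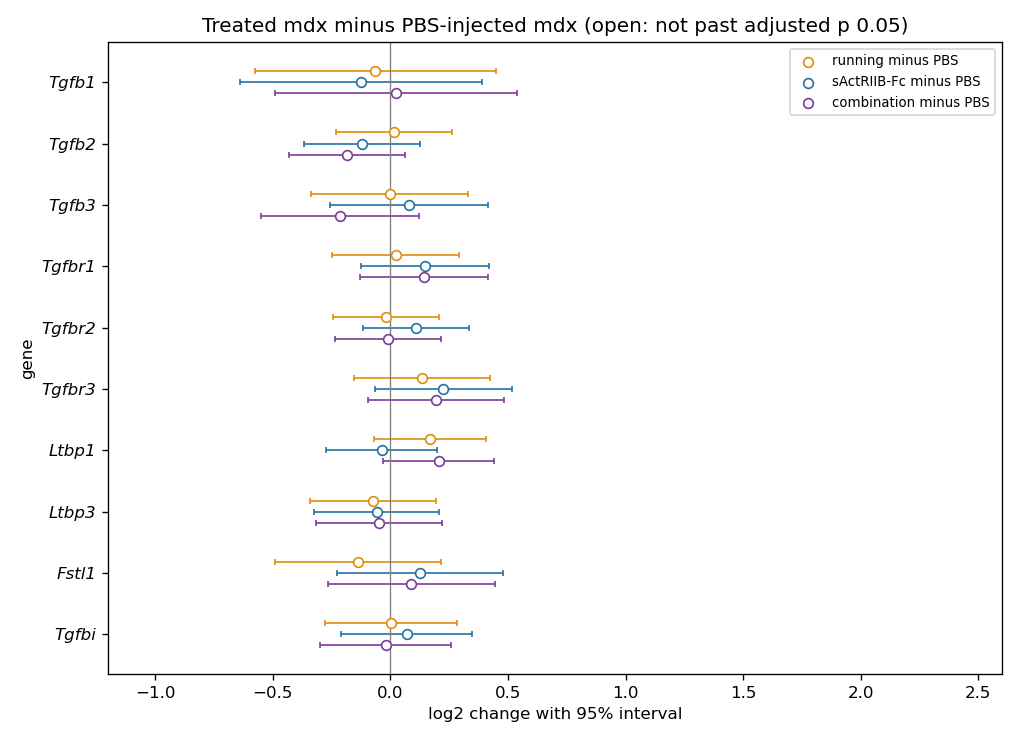
Log2 difference from PBS-injected mdx (x axis) of each of the 10 genes (y axis) under running, sActRIIB-Fc and the combination; points are limma estimates, lines 95% intervals, and the x axis spans the same range as in the plot against wild type. All points are open, since none passed an adjusted p of 0.05, and they lie between -0.21 and 0.23.

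Averaged over the other factor, 10 arrays stood against 10. sActRIIB-Fc then gave -0.02 ± 0.18 for Tgfb1 (0.77- to 1.27-fold), 0.06 ± 0.08 for Tgfbr2 (0.93- to 1.16-fold), 0.18 ± 0.12 for Fstl1 (0.95- to 1.34-fold) and 0.02 ± 0.10 for Tgfbi (0.89- to 1.17-fold), where the ranges are 95% intervals. Tgfb2 gave -0.16 ± 0.08 (unadjusted p = 0.070, adjusted p = 1.00), the lowest p of the 10 in that comparison. For Tgfb1, Tgfbr2, Fstl1 and Tgfbi the lower bound of the sActRIIB-Fc interval (-0.38, -0.10, -0.07 and -0.17 log2 units) was smaller in size than the lower bound of the rise over wild type under PBS (0.99, 0.67, 0.97 and 0.75).

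Running averaged over both injections gave 0.04 ± 0.18 for Tgfb1 (0.80- to 1.32-fold), -0.07 ± 0.08 for Tgfbr2 (0.85- to 1.07-fold), -0.09 ± 0.12 for Fstl1 (0.79- to 1.12-fold) and -0.04 ± 0.10 for Tgfbi (0.85- to 1.11-fold). Ltbp1 gave 0.21 ± 0.08 (unadjusted p = 0.018, adjusted p = 0.65). Its running arrays were 7.05, 6.97, 6.97, 6.80 and 6.67 and its combination arrays 6.80, 7.10, 6.90, 6.85 and 6.98, against 6.65, 6.65, 7.01, 6.77 and 6.51 under PBS and 6.66, 6.38, 6.76, 6.75 and 6.87 under sActRIIB-Fc. The runners overlapped the sedentary groups. Added to sActRIIB-Fc alone, running gave 0.24 ± 0.11 for Ltbp1 (unadjusted p = 0.046, adjusted p = 0.60).

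The interaction of running with sActRIIB-Fc was estimated least closely. Tgfb1 gave 0.21 ± 0.35 (interval -0.52 to 0.94) and Tgfb3 gave -0.29 ± 0.23 (-0.76 to 0.18), the largest estimates in each direction. The lowest adjusted p of the 10 was 0.93. Over the 36 other settings the Tgfb1 interaction ran from -0.17 to 0.67 and was not called.

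The combination group was less even than the others. The SD of Tgfb1 was 0.77 there, and 2.34% of all genes had a larger one in that group. It was 0.10 under sActRIIB-Fc, where 82% of genes had a larger one. The median SD of all genes was 0.24 in the combination and 0.16 to 0.19 in the other groups. Combination replicates 1 and 2, with Tgfb1 at 6.53 and 6.78, were hepatocyte-rich (10.03 and 9.36, against 4.91 to 5.29 on the other 3). Combination replicate 3 had the highest Tgfb1, Fstl1 and Tgfbi of all mdx arrays and the highest mean of 9 macrophage markers (9.96), and combination replicate 4 had the lowest Fstl1 and Tgfbi and the lowest macrophage mean (8.13). Without the 4 hepatocyte-rich arrays the combination's Tgfb1 difference from wild type was 1.93 (adjusted p = 9.37e-07). The part of these transcripts in the spread was not tested.

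The 20 mdx arrays also showed which of these genes varied together within groups. The values that follow are Pearson r over the 20 arrays after removal of each group's mean, given as descriptions, since arrays share normalization and cell content. Fstl1 and Tgfbr1 went together (r 0.77, Spearman rho 0.70, r 0.60 without the 2 farthest arrays), although Tgfbr1 was not called against wild type. Ltbp3 went with Tgfbr3 (r 0.61, and 0.54 without the 2 farthest) and Tgfb1 (0.52 and 0.69) and against Tgfbr1 (-0.72 and -0.50). Some other values of Tgfb1 turned on 2 arrays. Its r was -0.27 with Tgfbr1 and -0.27 with Fstl1 over 20 arrays, and -0.47 and -0.60 without the 2 farthest. With Tgfbi it was 0.47 and 0.07. The values with Tgfb2 (0.39 and 0.35) and Tgfbr2 (-0.17 and -0.19) changed little.

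Set against the means of marker lists, Fstl1 (r 0.79, and 0.73 without the 2 farthest arrays) and Tgfbi (0.66 and 0.53) followed the macrophage mean, and Tgfbr1 did so less closely without 2 arrays (0.72 and 0.46). Tgfbr2 followed the mean of 10 fibroblast and fibro-adipogenic markers (0.64 and 0.82). It was at 0.13 with macrophages (0.40 without the 2 farthest) and at -0.001 with regenerating fibre markers (0.55 without them). Tgfb3 followed the mean of 8 endothelial markers (0.71 and 0.67). Tgfbr3 was at 0.54 with that mean (0.52 without the 2 farthest) and at -0.57 with macrophages (-0.70 without them). With the mean of 9 mature fibre genes Ltbp3 was at 0.63 (0.42 without the 2 farthest) and Tgfb2 at 0.59 (0.64). Ltbp3 was at -0.61 with macrophages, a value that rested on 2 arrays (-0.32 without them). Ltbp3 and Tgfb1, which went together, were at -0.60 and -0.78 with the hepatocyte mean (-0.49 and -0.71 without the 2 farthest). The part of these transcripts in that pairing was not tested. Tgfb1 was at -0.06 with macrophages over 20 arrays and at -0.44 without the 2 farthest (rho -0.33). In whole muscle, more cells of a type and more RNA per cell cannot be told apart.

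**Figure D4:**
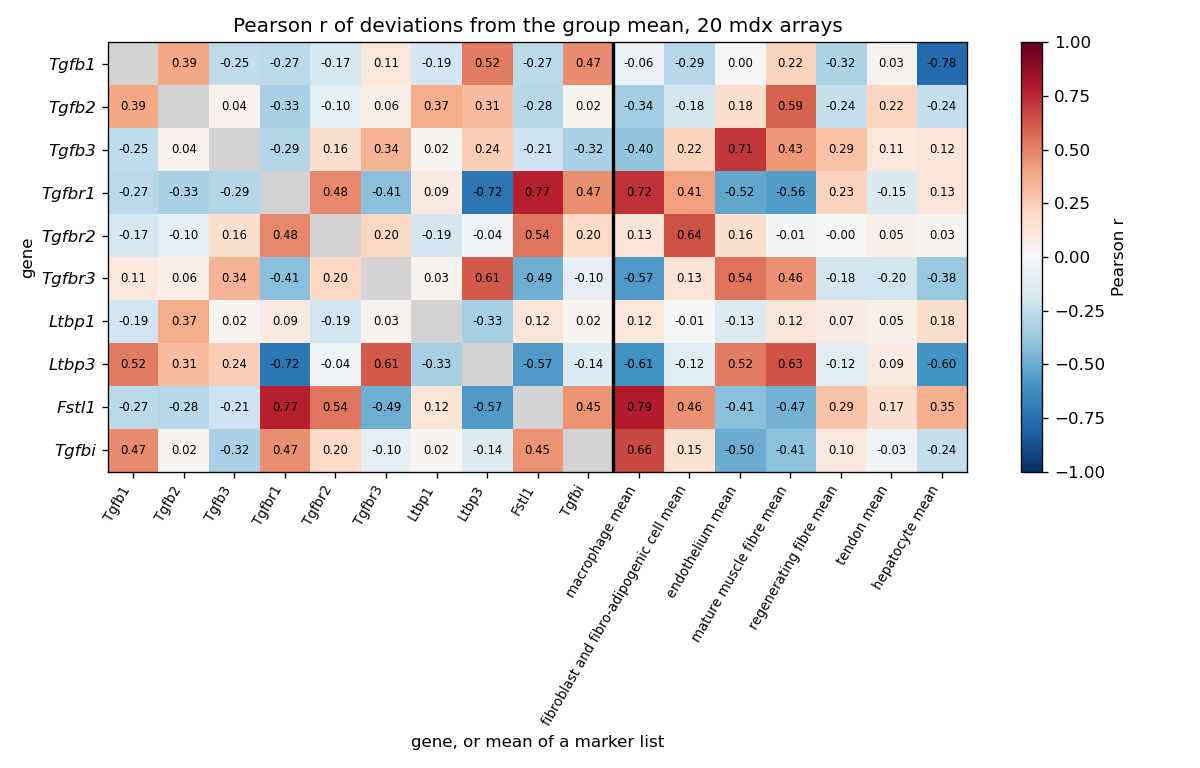
Pearson r (colour) between each of the 10 genes (y axis) and the same genes or the means of marker lists (x axis, right of the black line), as deviations from the group mean over the 20 mdx arrays. Fstl1, Tgfbr1 and Tgfbi have the highest values in the macrophage column (0.79, 0.72 and 0.66). Tgfb1 and Ltbp3 have the lowest in the hepatocyte column (-0.78 and -0.60).

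By the same measure over the other 8944 genes, the 3 genes most like Tgfb1 were Gnai2 (r 0.93), Smc1a (0.90) and Ncapd2 (0.90). For Fstl1 they were Rnase4 (0.92), Emp1 (0.89) and Dstn (0.88), and for Tgfbi they were F13a1 (0.91), Dok2 (0.90) and Eif4a1 (0.89). Tgfbr2 was most like Magee1 (0.88), Asap1 (0.86) and the collagen gene Col6a1 (0.84). Tgfbr1 was most like Hprt (0.90), the myeloid lectin Clec4a3 (0.89) and Gspt1 (0.89). Ltbp3 was most like Camta2 (0.91), Ptprs (0.90) and Zkscan17 (0.89), Tgfbr3 like Iba57 (0.84), Mtmr3 (0.81) and Agbl3 (0.79), and Tgfb3 like Gpr22 (0.81), Kars (0.80) and Mau2 (0.78). Tgfb2, with Mapre3 (0.74), Comtd1 (0.74) and Cdyl2 (0.72), and Ltbp1, with Trim69 (0.71), Uqcc2 (0.64) and Tex10 (0.63), had weaker matches. Each is the highest of 8944 values and carries no test.

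The wider pathway was read from 4 lists in PBS-injected mdx against wild type. Of 14 tested genes listed for TGF-beta latency and activation, 6 rose and 2 fell (8 and 1 with scaling to equal medians). Across all genes 19.3% rose and 18.5% fell. The median difference of the 14 genes was 0.29, against -0.05 for all genes. The membrane collagenase Mmp14 rose by 2.25 ± 0.14, the gelatinase Mmp2 by 1.55 ± 0.15, the procollagen protease Bmp1 by 1.02 ± 0.13 and the urokinase Plau by 0.76 ± 0.15 (adjusted p from 1.47e-11 to 0.00037). Ltbp2, a relative of the LTBPs that does not bind the latent ligand, fell by 0.55 ± 0.14 (adjusted p = 0.0037), and the integrin Itgb5 fell by 0.31 ± 0.11 (adjusted p = 0.028). Ltbp4, the remaining latent binder, gave 0.18 ± 0.16 (adjusted p = 0.39). With scaling to equal medians Ltbp2 gave -0.34 and was not called (adjusted p = 0.062).

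Of 13 tested extracellular binders and co-receptors 8 rose and none fell (median 0.39), where 19.3% of all genes rose and 18.5% fell. The small proteoglycans Bgn and Lum, which bind collagen, rose by 1.89 ± 0.17 and 1.67 ± 0.24. Vasn, a membrane protein that traps TGF-beta, rose by 0.74 ± 0.11, and the secreted protease Htra3 by 0.92 ± 0.15 (adjusted p of these 4 from 7.86e-09 to 2.49e-05). Biglycan and vasorin are known to bind TGF-beta itself.

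From receptor to Smad, 3 of 20 tested genes rose and 3 fell, close to the 19.3% and 18.5% of all genes (median 0.04, and 0.17 with scaling to equal medians). The adaptor Dab2, also expressed in macrophages, rose by 1.42 ± 0.21 (adjusted p = 1.24e-05), the Smad corepressor Tgif1 by 0.61 ± 0.18 (adjusted p = 0.012) and the BMP mediator Smad1 by 0.34 ± 0.12 (adjusted p = 0.024). Tgif1 was near background in wild type, where it was detected on 1 of 4 arrays, against 5 of 5 under PBS. The Smad phosphatase Ppm1a fell by 0.56 ± 0.10 (adjusted p = 7.54e-05), the inhibitory Smad6 by 0.43 ± 0.14 (adjusted p = 0.018) and the shared Smad4 by 0.27 ± 0.09 (adjusted p = 0.022). Smad2 gave -0.07 ± 0.12 and Smad3 -0.14 ± 0.13 (adjusted p = 0.65 and 0.40). With scaling to equal medians 4 rose and 1 fell. Skil was then called higher (0.63, adjusted p = 0.038), and Smad6 (-0.17, adjusted p = 0.40) and Smad4 (-0.28, adjusted p = 0.056) were no longer called. Without the 4 hepatocyte-rich arrays 2 rose and 4 fell: Tgif1 was not called (0.53, adjusted p = 0.056), and Hipk2 was called lower (-0.60, adjusted p = 0.020). Hipk2 was called lower with the hepatocyte mean as a covariate too (-0.77, adjusted p = 0.0028), but not in the main fit (-0.50).

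Of 22 tested textbook TGF-beta target genes 15 rose and 1 fell (median 0.99, and 0.60 without background correction). Of all tested genes 19.3% rose and 18.5% fell. The collagens Col5a1 and Col3a1 rose by 2.10 ± 0.14 and 2.26 ± 0.27, the metalloprotease inhibitor Timp1 by 4.16 ± 0.30 and the cell cycle inhibitor Cdkn1a by 1.61 ± 0.18 (adjusted p from 1.11e-10 to 5.51e-07). Tagln, a smooth-muscle actin-binding protein and a classical target, fell by 0.95 ± 0.15 (adjusted p = 3.05e-05). Ccn2, often used as a read-out of the pathway, gave 0.33 ± 0.20 (adjusted p = 0.21). These genes answer to other signals too. The lists were chosen with earlier results of these data known.

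Markers of other cell types differed between the same groups, in which 19.3% of all genes rose and 18.5% fell. Of 9 tested macrophage markers 8 rose (median 2.34), and their mean was 6.53 to 7.16 in wild type and 8.78 to 9.28 under PBS (summed linear levels 1444 to 2025 and 7112 to 16111). Of 10 tested fibroblast and fibro-adipogenic markers 6 rose (median 0.58), with means of 7.70 to 7.95 and 8.36 to 8.52 (summed 2609 to 3577 and 4369 to 6801). Itgam and Tcf21, members of these lists, were detected on no array. Of 8 endothelial markers none was called (median 0.02). The part of these cells in the rises of Tgfb1, Tgfbr2, Fstl1, Tgfbi and the pathway lists was not tested.

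List counts against wild type in the other mdx groups are read against the 17.8% to 19.8% of all genes that rose there and the 16.9% to 19.7% that fell. The target list had 15 higher in each of the 4 groups and 1 or 2 lower, the binders 7 or 8 higher, the latency genes 5 or 6 higher and 2 lower, and the Smad list 3 or 4 higher and 3 to 5 lower of 20, near those shares. Within mdx no member of any of the 4 lists passed in any of the 8 comparisons.

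**Figure D5:**
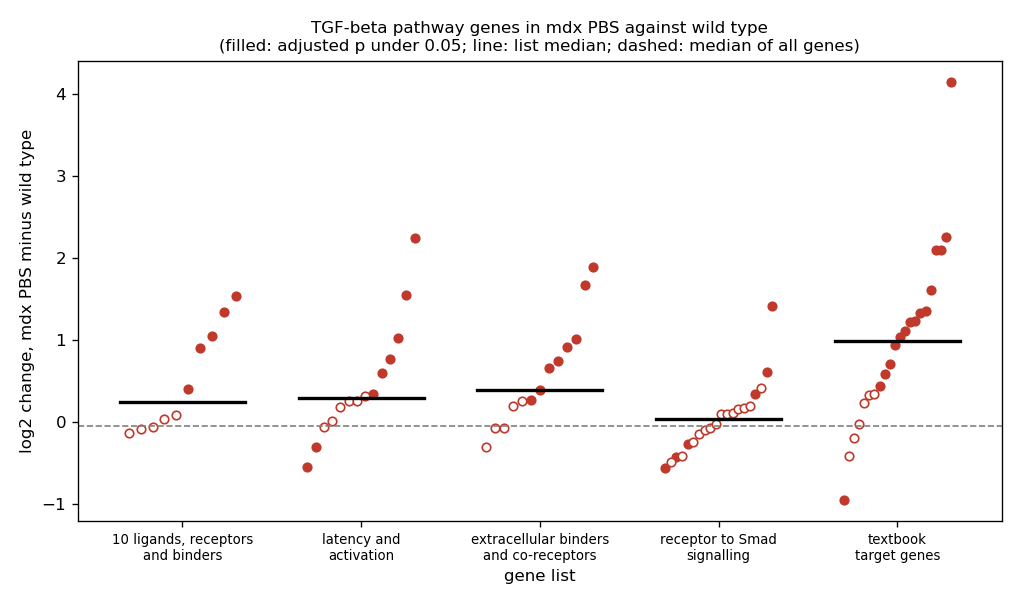
Log2 difference of PBS-injected mdx from wild type (y axis) for the 10 genes and the tested members of the 4 pathway lists (x axis); each point is a gene, filled points passed an adjusted p of 0.05, lines mark list medians and the dashed line the median of all genes. The target list has the highest median (0.99) and the receptor-to-Smad list (0.04) lies next to the median of all genes (-0.05).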

How the data were processed

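Per the labels' protocols, total RNA from powdered gastrocnemius was isolated with Trizol and, after DNase digestion, a TotalPrep kit made labelled cRNA from it. The deposited table held the intensity of 25697 probes, the authors' bead signal without background subtraction or normalization, and, per the file headers, a detection p-value beside each signal. A deposited matrix held log2 values, which quantile normalization of the uncorrected signal gave back to within 0.005. It served as an alternative. The software behind both is not given in the sources used here.

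Starting from the intensity table, limma 3.58.1 (R 4.3.3) was used for normexp background correction from the detection p-values (offset 16), quantile normalization and log2 transform. Probes with a detection p under 0.05 on at least 4 arrays were kept (12623, of which 11919 had a symbol), and each of 8945 genes was read from its brightest kept probe by mean level. Symbols came from the platform annotation, updated through its gene identifiers: 23978 probes had 1 symbol and 1719 had none here. One limma model held the mean of each of the 5 groups over 24 arrays, with empirical Bayes moderation, two-sided tests and Benjamini-Hochberg adjustment over all 8945 genes. Of 12 contrasts, 4 set an mdx group against wild type and 8 were within mdx. Values are estimates ± SE, or group ranges with SD. The fit was tested on simulated data.

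The 10 genes, the 4 pathway lists and the 8 marker lists were chosen with earlier results of these data known. The text names all 10 genes, of each pathway list up to 4 called members in each direction with the lowest p, and the 3 genes most like each of the 10. Ltbp4, Smad2, Smad3, Ccn2, Hipk2 and Skil were named outside that rule, after their values were seen. The number of arrays limits precision. The design text counts the groups in mice, and replicates were taken as mice. Correlations between arrays ran from 0.898 to 0.994, and no 2 arrays were identical. The alternatives were another scaling, no background correction, the deposited log2 values, other detection filters, each probe as a feature, only the groups compared, array weights, covariates for hepatocyte transcripts and raw signal, a replicate block and leaving out each array.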

Additional observations from a re-analysis of the deposited data

Results flagged for a closer look

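Tgfbi on running replicate 3 stood at 10.93 log2 units, apart from the other 4 running arrays, which lay between 10.63 and 10.71. Its gap to the next array was 0.746 of the range of the group, above Dixon's critical ratio of 0.71 for 5 arrays. This was the only array singled out in 50 such tests of the 10 genes in the 5 groups, and chance alone singles out about 1 in 20. The second Tgfbi probe gave 7.95 on the same array, within the range of 7.66 to 7.96 of the running group. The running group differed from wild type by 1.05 with this array in place.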

How the results depend on the processing

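Each of the 10 genes was refitted in the 12 comparisons under 36 other settings, 24 of which left out 1 array. No called difference turned its direction. Calls were lost 21 times, all for Ltbp3, and gained 24 times, of which all but 3 were Ltbp3 under running or sActRIIB-Fc against wild type. The other 3 were Tgfb2 in the combination with the replicate block (-0.31, adjusted p = 0.042), Tgfbr1 in the combination without combination replicate 4 and Ltbp1 in the combination with scaling to equal medians (0.33, adjusted p = 0.040). Among differences that were called neither way, 201 of 3648 changed sign. No count of called genes moved by more than 1.5 times. In PBS-injected mdx against wild type it was 4 or 5 in every setting, and the 10-gene count within mdx was 0 in every setting. In PBS-injected mdx against wild type Tgfb1 ran from 0.98 to 1.80 over the 36 settings, Tgfbr2 from 0.85 to 0.98, Fstl1 from 1.20 to 1.50 and Tgfbi from 0.95 to 1.13. Over all 4 mdx groups Tgfb1 ran from 0.89 to 1.93.

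Raw median signal went with the replicate number: replicate 1 was the brightest array in all 5 groups (90.6 to 99.0), and replicates 4 and 5 ran from 72.3 to 84.8. With that signal as a covariate 5 of 10 genes were called in each mdx group against wild type and 0 within mdx, and Tgfb1 under PBS was 1.80. The labels do not say that a number marks a shared batch, so replicate numbers were not taken as pairs. Same-numbered arrays of different groups were more alike on average. Their mean correlation of deviations was 0.14 (from -0.44 to 0.65 over 46 pairs), against -0.04 for other pairs, and 11 of 24 arrays correlated best with their own number. Whether same-numbered arrays were processed together was not tested. With the replicate block 5 of 10 genes were called for PBS-injected mdx against wild type, 5 for running, 5 for sActRIIB-Fc, 6 for the combination and 0 within mdx. Ltbp3 then passed under running (0.31, adjusted p = 0.047) and sActRIIB-Fc (0.33, adjusted p = 0.035).

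A block for the BeadChip was not run, since the columns name no chip. Low signals such as Tgfb1 in wild type depend on the background correction, and the number of arrays limits the differences that show within mdx. The setting without the 4 hepatocyte-rich arrays and the refits of the lists were chosen after seeing the data.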

Other observations

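Markers of regenerating fibres rose in PBS-injected mdx against wild type in 7 of 7 tested genes (median 2.31), with a mean between 6.13 and 6.45 in wild type and between 8.94 and 9.61 under PBS. Over all tested genes 19.3% rose and 18.5% fell in that comparison. Of 9 tested mature fibre genes 1 was called higher (median 0.03). With scaling to equal medians that gene, Myh1, was not called and Ckm was called lower (-0.24, adjusted p = 0.025). Of 4 tested tendon markers 1 rose and 1 fell, and of 8 tested hepatocyte genes 1 fell (median -2.51). Of 8 T and B lymphocyte markers only 1 could be tested, and it was not called (0.18). Cd3e, Cd4, Cd8a and Cd79a were detected on no array.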
